A study of Mus musculus with 31 samples.

Results

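The cell cycle and replication machinery of mouse cells was followed here through 50 genes, a fixed list chosen by gene symbol. All 50 had a row in both deposited tables, which hold 20314 genes each. They divide into 12 genes of G1/S control (D and E cyclins, their kinases, E2F factors and pocket proteins), 15 genes of DNA replication and nucleotide supply, and 23 genes of G2 and mitosis. Their levels are given in TPM, a share of all transcripts that corrects for transcript length and so allows genes to be compared with each other. Differences between groups were tested with edgeR on the authors' expected counts, and "called" means an edgeR adjusted p under 0.05 over all genes tested.

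The study compared "expandable hemangioblasts" (eHB), self-renewing mouse lines kept in doxycycline, with their progeny and with control cells, in 31 RNA-seq libraries. Fetal hematopoietic stem cells (HSC, 1 library) were sorted at E14.5 (embryonic day) as CD45-positive, CD201-positive, CD150-positive and CD48-negative. Endothelial cultures of day 3 (n = 5) were the unsorted progeny of the 5 eHB lines after 3 days without doxycycline on Matrigel in N2B27 medium with VEGF, 8-bromo-cAMP, the TGF-beta receptor inhibitor SB431542, BMP4 and FGF2. Blood cultures of day 3 (n = 5) and of day 2 (n = 5) came from the same lines after CHIR99021, SCF, IL-3 and Flt3L at 1.5% oxygen without doxycycline. The day 3 cells were sorted as VE-cadherin-positive and CD45-positive, and the day 2 cells as VE-cadherin-positive and CD45-negative. The eHB lines (n = 5) were unsorted and held in 2 µg/mL doxycycline. RB3.6.5 and RB4.6.9 were derived from ES cells and grew in the endothelial medium. FL4 and FL10 were derived from fetal liver and M5 from embryonic fibroblasts, and these 3 lines, called tissue-derived below, grew with FGF2 as their only other supplement. Kdr-positive mesoderm (n = 3) was sorted after 4 days of differentiation from the ES lines RB2, RB3 and RB4, of which the last 2 days were with Activin A, CHIR99021, BMP4 and FGF2. The ES cells (n = 3) were these same lines in N2B27 with CHIR99021, PD0325901 and LIF. Endothelial cells of yolk sac (n = 2) and of embryo (n = 2) were sorted at E11.5 as VE-cadherin-positive and Pecam1-positive. Each eHB line is a single culture of one derivation, medium and origin cannot be told apart among the eHB lines, and no label says whether the pairs of primary endothelial libraries came from separate litters, so p-values measure the spread between these samples.

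As background, D cyclins bind Cdk4 or Cdk6 and phosphorylate Rb1 and its relative Rbl1, which otherwise hold E2F factors silent, and cyclin E with Cdk2 completes the entry into S phase. E2F factors then raise the genes that license origins (Cdc6, Cdt1 and the Mcm2 to Mcm7 helicase), copy DNA and make deoxynucleotides. A later wave of genes, driven by Mybl2, Foxm1 and the MuvB core through CHR elements and CCAAT boxes, builds the mitotic apparatus. Proliferating cells therefore hold replication and mitotic transcripts at high levels, whereas D cyclins follow growth factor signals. In bulk RNA, fewer cycling cells and less of a transcript in each cell cannot be told apart.

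Promoters of 6 members are shown because their genes moved in different ways below: the first 5 lay in sets that fell together in endothelial cultures, and Tyms, which makes thymidylate, was the replication gene that was not called there. Each sequence is the 160 bases before the RefSeq start on GRCm38.p6, read 5′ to 3′ on the gene's strand. Capitals mark the motifs searched on both strands, namely E2F sites (TTTGGCGC, TTTCGCGC or TTTCCCGC), CHR elements (TTTGAA or TTTAAA) and CCAAT boxes (CCAAT).
Ccnb1 (chr13:100786487-100786646, minus strand): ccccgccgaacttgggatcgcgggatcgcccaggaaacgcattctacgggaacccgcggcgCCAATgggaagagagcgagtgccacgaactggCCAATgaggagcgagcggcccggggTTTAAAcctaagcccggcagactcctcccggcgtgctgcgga
Cdk1 (chr10:69352913-69353072, minus strand): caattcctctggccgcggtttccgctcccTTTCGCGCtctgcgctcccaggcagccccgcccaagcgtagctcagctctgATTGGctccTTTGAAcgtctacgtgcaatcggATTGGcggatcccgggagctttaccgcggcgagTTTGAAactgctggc
Cdc20 (chr4:118437344-118437503, minus strand): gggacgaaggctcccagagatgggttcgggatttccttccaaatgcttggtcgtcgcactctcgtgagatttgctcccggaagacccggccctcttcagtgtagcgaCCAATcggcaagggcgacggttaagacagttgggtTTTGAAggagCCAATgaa
Mcm6 (chr1:128359706-128359865, minus strand): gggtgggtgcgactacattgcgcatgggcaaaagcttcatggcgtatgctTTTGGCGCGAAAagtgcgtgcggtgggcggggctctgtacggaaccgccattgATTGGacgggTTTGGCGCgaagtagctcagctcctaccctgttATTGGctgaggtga
Mcm5 (chr8:75109349-75109508, plus strand): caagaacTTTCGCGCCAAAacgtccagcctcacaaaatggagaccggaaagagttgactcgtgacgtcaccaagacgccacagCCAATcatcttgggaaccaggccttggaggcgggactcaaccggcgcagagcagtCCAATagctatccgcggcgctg
Tyms (chr5:30073626-30073785, minus strand): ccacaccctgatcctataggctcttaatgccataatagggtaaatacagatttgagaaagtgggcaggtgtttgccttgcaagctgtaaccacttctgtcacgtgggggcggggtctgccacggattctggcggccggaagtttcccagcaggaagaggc
In the windows shown, Ccnb1, Cdk1 and Cdc20 pair CCAAT boxes with a CHR element, and Cdk1 holds an E2F site as well. Mcm6 and Mcm5 pair CCAAT boxes with E2F sites, and the Tyms window holds none of these letters. The members do not divide cleanly by these motifs. In the 250 bases before the start, Mcm2, Mcm3 and Mcm10 hold no E2F letters, and Aurka, Bub1 and Bub1b hold no CHR element. Mcm2 and Mcm5 do hold a CHR element there. In Mcm6 and in Mcm5 a pair of E2F matches on opposite strands overlaps.

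Over the 250 bases before the start, 39 of the 50 members had 42 RefSeq promoters. A CHR element together with a CCAAT box stood in 10 of 18 G2/M promoters (55.6%), 2 of 14 replication promoters (14.3%) and 1 of 10 G1/S promoters (10%), against 8.78% of all 32851 promoters. E2F letters stood in 4 of 14 replication promoters (28.6%), 2 of 10 G1/S promoters (20%) and 1 of 18 G2/M promoters (5.56%), against 1.53% of all promoters. A CCAAT box was present in 14 of 18 G2/M (77.8%), 10 of 14 replication (71.4%) and 4 of 10 G1/S promoters (40%), against 33.8% of all. None of the 3 motifs stood in 3 of 18 G2/M (16.7%), 2 of 14 replication (14.3%) and 4 of 10 G1/S promoters (40%), against 49% of all. The G2/M genes without them fell in endothelial cultures as well, as did every replication gene except Tyms, with or without these motifs. Tyms was chosen after its values were seen. These shares describe letters and are no evidence of binding.

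Library totals ran from 9424412 to 79497758 expected counts. ES markers (Pou5f1, Nanog, Esrrb, Zfp42) summed to 2762 to 2835 TPM in ES cells and to at most 146.9 TPM in other groups, and 5 endothelial markers summed to 5394 to 6715 TPM in endothelial cultures and to 121.1 to 349 TPM in eHB. Blood markers (Ptprc, Spi1, Itga2b, Kit) summed to 807.3 to 3222 TPM in day 3 blood and to 434.3 to 4042 TPM in day 2 blood, with erythroid markers (Hbb-bh1, Hba-x, Alas2) at 181.9 to 7858 TPM on day 3 and 2060 to 53410 TPM on day 2. The ectopic Mycn transcript was at 1140 to 3767 TPM in eHB and at no more than 28.57 TPM in any other group. Among blood libraries, some stood apart for the members. Day 3 blood of RB3.6.5, with 9424412 counts and the erythroid 7858 TPM, was the lowest of its group for 15 of 15 replication and 23 of 23 G2/M members. Day 2 blood of M5, with 13236697 counts, blood markers at 4042 TPM and erythroid markers at 42930 TPM, was likewise the lowest for 15 of 15 and 23 of 23. Day 2 blood of FL4, with the highest erythroid sum of 53410 TPM, went the other way and was the highest for 11 of 15 replication and 23 of 23 G2/M members. Day 3 blood of FL4 was the highest of its group for 15 of 15 replication and 15 of 23 G2/M members. Among eHB lines, FL4 was the highest for 12 of 15 replication members but for only 1 of 23 G2/M members. The part that these markers and depths play in the results was not tested. The share of all genes for which a library was lowest or highest is not given here. Such counts, here and below, therefore cannot be set against other genes. Ccnd3, Ccnb1, Ccnb2, Tyms and Pcna have pseudogenes in the annotation without rows of their own, so their reads cannot be told apart. The strand setting is not stated, so overlapping genes are likewise uncertain.

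The sets differed in how far they ranged across the 9 groups. The mean of log2(TPM + 1) over the 23 G2/M members lay in ES cells between 7.16 and 7.19, in mesoderm between 6.51 and 6.60 and in eHB between 6.69 and 7.03, but in endothelial cultures between 2.78 and 4.25. Day 2 blood spanned 4.63 to 6.87 and day 3 blood 3.77 to 6.07, and the mean was 6.37 in HSC, 6.48 to 6.49 in yolk sac and 6.41 to 6.44 in embryo endothelium. Endothelial cultures overlapped no other group except day 3 blood, where RB3.6.5 had the lowest value. For the 15 replication members ES cells had means of 7.86 to 7.93, mesoderm 7.29 to 7.40, eHB 7.32 to 7.60 and endothelial cultures 3.98 to 5.07. Day 2 blood had 5.35 to 7.12, day 3 blood 4.52 to 6.71, HSC 7.28, yolk sac 6.71 to 6.78 and embryo endothelium 7.00 to 7.10. The 12 G1/S members stayed within 4.81 to 6.02 in every library of the series, and the members of this set went in opposite directions.

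**Figure D1:**
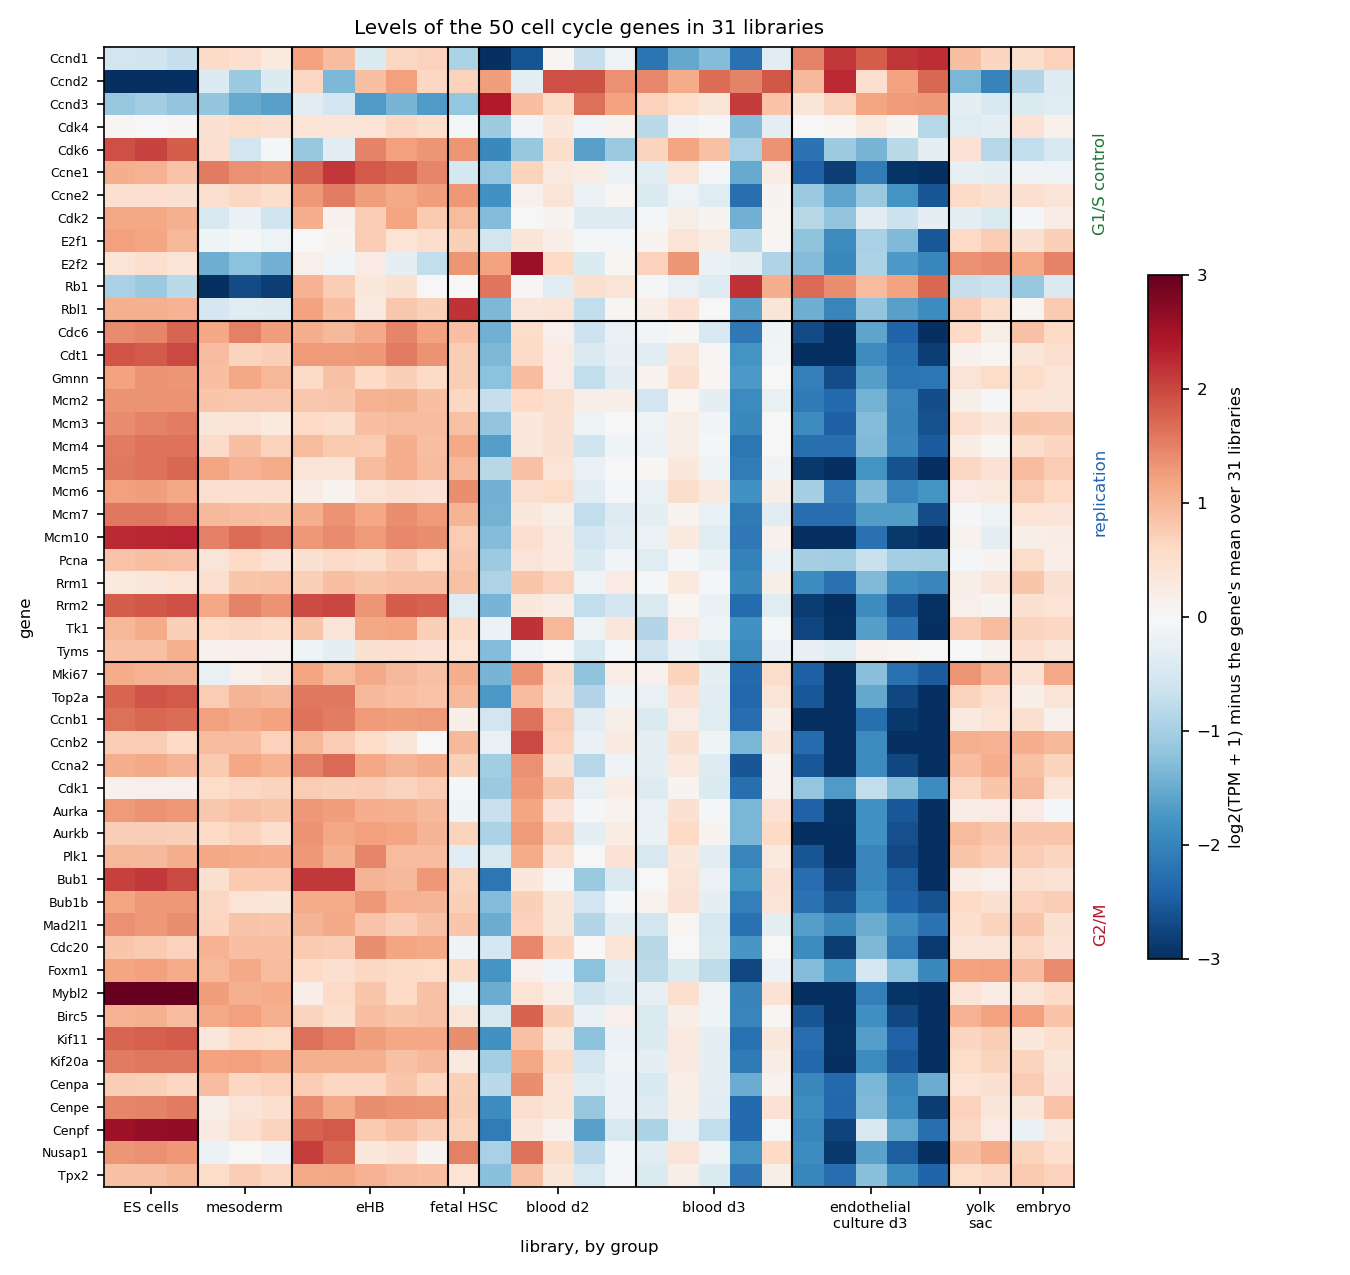
Heat map of the 50 members (rows, by set) in 31 libraries (columns, by group), coloured by log2(TPM + 1) minus the gene's mean over all libraries and clipped at -3 and 3. Nearly every replication and G2/M row is low in the 5 endothelial cultures, while Ccnd1, Ccnd3 and Rb1 run the other way.

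**Figure D2:**
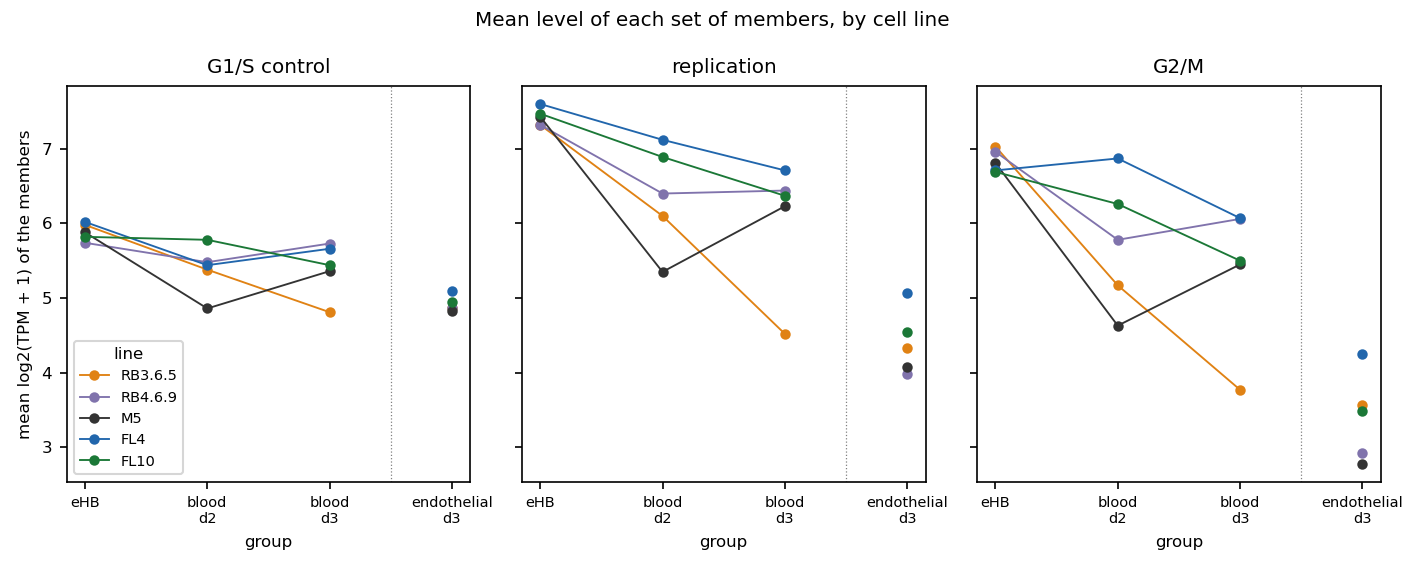
Mean log2(TPM + 1) over each set (vertical axis) for the 5 eHB lines, one line per eHB line joining eHB, blood day 2 and blood day 3, with the endothelial culture right of the dotted line. All 5 lines had replication and G2/M means that were lower in the endothelial culture than in eHB, with G2/M between 2.78 and 4.25 against 6.69 to 7.03.

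Endothelial cultures were set against the eHB lines they came from, which asks what 3 days without doxycycline in endothelial medium did to the machinery. Nearly all of it fell: 45 of 50 members were called lower and 3 higher, against a background of 35.6% of 12579 genes called lower and 34.3% higher. All 23 G2/M members fell (median log2 fold change -3.59, range -4.59 to -1.92), as did 14 of 15 replication members (median -3.0) and 8 of 12 G1/S members. Ccnd1, Ccnd3 and Rb1 rose. The median over all genes was -0.04, and 43 members were lower by a test against a 2-fold change, which 16.8% of all genes passed.

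Values below are in the order RB3.6.5, RB4.6.9, M5, FL4 and FL10 wherever 5 libraries are listed. Ccnb1, the B cyclin that brings Cdk1 into mitosis, had 9.70, 5.94, 4.90, 19.05 and 11.9 TPM in endothelial cultures, against 295, 273, 230.2, 227 and 231 TPM in eHB. The groups did not overlap. The FL4 culture was the highest of the endothelial cultures for Ccnb1, as for 23 of 23 G2/M and 13 of 15 replication members. Its fibroblast and mural markers summed to 77.22 TPM, against 2.373 to 7.88 TPM in the other endothelial cultures, and their part in this was not tested. For Ccnb1 the log2 fold change was -4.59 ± 0.35 (SE, edgeR adjusted p = 1.83e-06). Bub1, a kinase of the spindle checkpoint, had 4.54, 2.90, 1.14, 6.04 and 3.91 TPM in endothelial cultures, against 117, 116, 53.8, 52.04 and 66.00 TPM in eHB. Again no library overlapped, and for Bub1 the log2 fold change was -4.41 ± 0.44 (SE, edgeR adjusted p = 9.53e-06). The G2/M member that fell least was Foxm1, a transcription factor of this wave, at -1.92 ± 0.25 (SE, edgeR adjusted p = 6.85e-05).

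Among replication genes, Mcm10, which acts when origins fire, had 1.42, 1.13, 1.73, 4.84 and 2.69 TPM in endothelial cultures, against 66.4, 71.7, 65.1, 73.6 and 70.6 TPM in eHB. Rrm2, the inducible subunit of ribonucleotide reductase, had 15.6, 8.96, 14.3, 30.95 and 18.6 TPM in endothelial cultures, against 462, 477, 295, 420.0 and 404 TPM in eHB. Both genes were lower in every endothelial culture than in any eHB line. The log2 fold changes were -4.87 ± 0.39 (SE, edgeR adjusted p = 2.33e-06), for Mcm10, and -4.51 ± 0.31 (SE, edgeR adjusted p = 9.72e-07), for Rrm2. All 6 subunits of the Mcm2 to Mcm7 helicase, which are assembled as a ring of equal parts, fell, but not equally, with log2 fold changes of -3.53 for Mcm5 to -1.92 for Mcm6. The ratio of the most to the least abundant subunit, in TPM, was 2.144 to 5.616 in endothelial cultures and 1.832 to 2.454 in eHB. It was highest in RB3.6.5, where Mcm6 had 78.73 TPM and Mcm5 14.02 TPM. Origin licensing factors fell with them, Cdt1 at -4.08 ± 0.31 (SE, edgeR adjusted p = 1.79e-06), and Cdc6 at -3.93 ± 0.41 (SE, edgeR adjusted p = 1.36e-05). Tyms had 56.9, 51.8, 66.4, 72.9 and 70.1 TPM in endothelial cultures, against 61.1, 55.3, 93.03, 96.03 and 91.6 TPM in eHB. Its TPM was lower in each line but it was not called, at -0.30 ± 0.20 (SE, edgeR adjusted p = 0.195). In the tissue-derived lines alone it was called lower, at -0.42 (edgeR adjusted p = 0.00317), and in the ES-derived lines alone it was at 0.02 (edgeR adjusted p = 0.864).

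The E cyclins fell, and Ccnd1 and Ccnd3 rose. Ccne1 had 6.63, 4.78, 3.74, 8.54 and 4.30 TPM in endothelial cultures, against 135, 175, 146, 136 and 111 TPM in eHB, without overlap. For Ccne1 the log2 fold change was -4.63 ± 0.24 (SE, edgeR adjusted p = 2.47e-07). Ccne2 had 4.40, 2.85, 0.962, 4.39 and 2.36 TPM in endothelial cultures, against 27.6, 32.8, 26.5, 24.5 and 26.8 TPM in eHB. It too was lower in all 5 lines, at -3.18 ± 0.36 (SE, edgeR adjusted p = 2.19e-05). Ccnd3 had 595, 731, 1132, 1044 and 1113 TPM in endothelial cultures, against 368, 308, 140.2, 175 and 141 TPM in eHB. Each endothelial culture lay above all eHB lines, and for Ccnd3 the log2 fold change was 2.08 ± 0.30 (SE, edgeR adjusted p = 0.00014). Ccnd1 had 489.9, 756, 809, 610.5 and 761 TPM in endothelial cultures, against 401, 331, 130.0, 268 and 279 TPM in eHB. It was likewise higher in every line without overlap, at 1.33 ± 0.26 (SE, edgeR adjusted p = 0.000938). Ccnd2 had 141, 338, 236, 101 and 165 TPM in endothelial cultures, against 109.9, 27.3, 134, 169 and 110.0 TPM in eHB. Here the groups overlapped and the gene was not called, at 0.86 ± 0.47 (SE, edgeR adjusted p = 0.126).

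The pocket proteins parted as well. Rbl1, itself an E2F target, had 2.79, 1.68, 1.85, 3.61 and 2.41 TPM in endothelial cultures, against 23.02, 18.7, 11.7, 17.2 and 16.2 TPM in eHB, with no overlap and a log2 fold change of -2.79 ± 0.23 (SE, edgeR adjusted p = 2.8e-06). Rb1 had 46.9, 38.2, 47.5, 27.5 and 33.3 TPM in endothelial cultures, against 29.4, 23.8, 17.4, 19.5 and 13.7 TPM in eHB. Rb1 was called higher at 0.95 ± 0.21 (SE, edgeR adjusted p = 0.00219), although the TPM ranges of the groups overlapped. Lpar6, a gene inside an intron of Rb1, rose in the same samples to 149 ± 52.2 TPM in endothelial cultures, against 32.9 ± 19.1 TPM in eHB, and its share in the Rb1 reads was not tested. Oraov1, which overlaps Ccnd1, was higher at 1.39 ± 0.12 (SE, edgeR adjusted p = 4.17e-06), and Bysl, which overlaps Ccnd3, was lower at -1.35 ± 0.22 (SE, edgeR adjusted p = 0.000276).

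The replication and G2/M members fell in lines of both origins. In the ES-derived lines, whose eHB and endothelial media differ by doxycycline alone, 43 members were lower and 2 higher (29.2% and 29.1% of all genes). In the tissue-derived lines, whose medium changed as well, 45 were lower and 3 higher (33.7% and 33.6%). Ccnd3 was higher by 1.10 in the ES-derived and by 2.86 in the tissue-derived lines on the log2 scale, and Ccnd1 by 0.90, which was not called (edgeR adjusted p = 0.0606), and by 1.70. A test of the difference between origins called 0 of 12579 genes with edgeR. Among members, 5 had an unadjusted p under 0.05, of which Ccnd3 had the smallest p, with a difference (tissue-derived minus ES-derived) of 1.74 ± 0.22 (SE, edgeR adjusted p = 0.0606). Within lines, all 15 replication and all 23 G2/M members had lower TPM in the endothelial culture in 5 of 5 lines.

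Genes of the same pathways outside the list went the same way. Of 42 other replication genes 41 fell and none rose, led by Gins1, a subunit of the replicative helicase, at -4.43 ± 0.26 (SE, edgeR adjusted p = 3.73e-07), and the helicase Recql4 at -4.31 ± 0.28 (SE, edgeR adjusted p = 6.59e-07). Of 55 other mitosis genes 53 fell, led by Cenpm of the kinetochore at -5.29 ± 0.33 (SE, edgeR adjusted p = 5.75e-07), and the separase gene Espl1 at -4.78 ± 0.47 (SE, edgeR adjusted p = 9.44e-06). Of 22 other E2F, Rb and MuvB genes 17 fell and 1 rose: Ccng2, a cyclin G linked to arrest, at 2.39 ± 0.53 (SE, edgeR adjusted p = 0.00219). Of 8 genes listed as CDK inhibitors 2 rose and 1 fell, namely Cdkn3 at -2.62 ± 0.40 (SE, edgeR adjusted p = 0.000199). Cdkn2b, which blocks Cdk4 and Cdk6, had 125 ± 50.3 TPM in endothelial cultures and 7.75 ± 2.59 TPM in eHB (SD, n = 5 each), at 4.05 ± 0.38 (SE, edgeR adjusted p = 6.52e-06). Cdkn1a, the p21 inhibitor, had 1300.0 ± 603 TPM in endothelial cultures and 645 ± 66.7 TPM in eHB, at 1.05 ± 0.30 (SE, edgeR adjusted p = 0.00977).

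**Figure D3:**
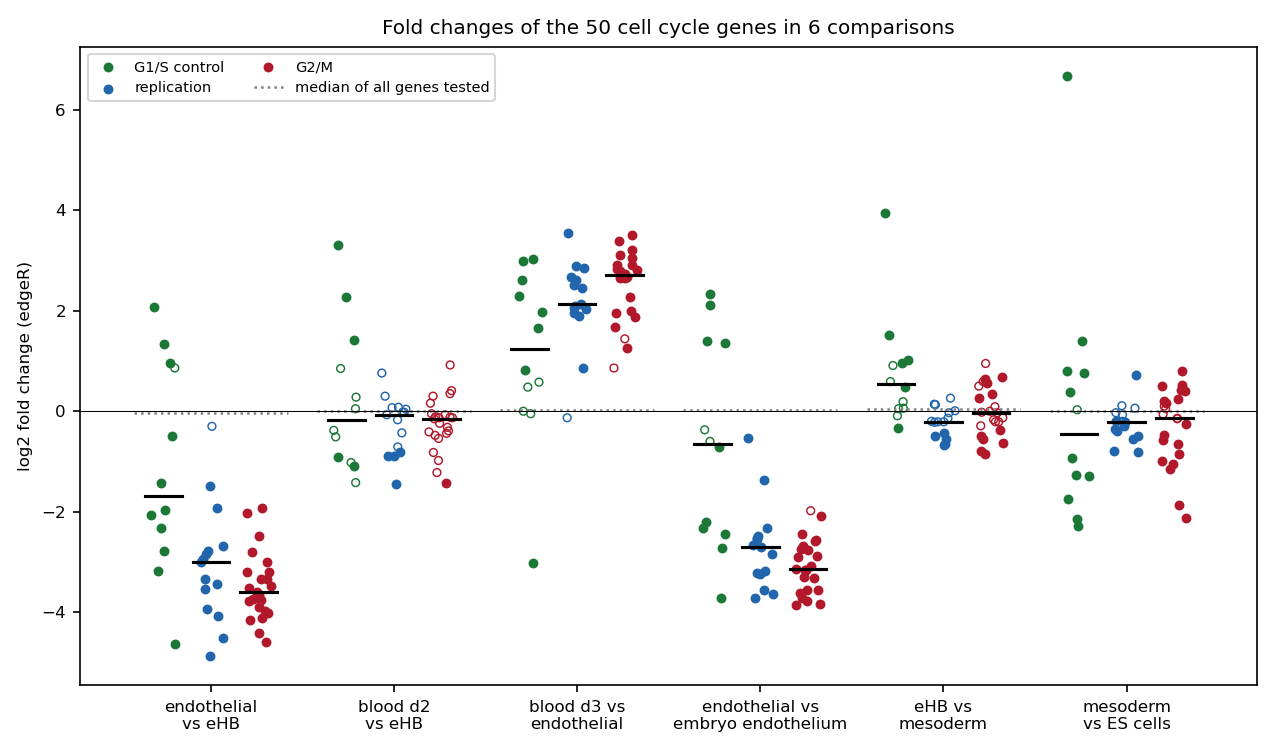
Log2 fold change (vertical axis, edgeR) of each member by set in 6 comparisons. Filled points passed an adjusted p under 0.05, open points did not, black bars are the medians of the sets and the dotted line is the median of all genes. In endothelial cultures against eHB the medians were -3.59 (G2/M), -3.0 (replication) and -1.69 (G1/S), and in day 3 blood against endothelial cultures they were 2.72, 2.13 and 1.24.

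Day 2 blood against eHB compares cells after 2 days in blood medium without doxycycline with the lines they came from. The blood cultures were also held at low oxygen and sorted, whereas eHB were unsorted with no oxygen level stated. The parts of medium, doxycycline, oxygen and sort cannot be told apart here. Most of the machinery was not called: 3 members were higher and 7 lower, against 28.5% and 25.5% of 12269 genes. The 22 other G2/M genes beside Bub1, and 11 of 15 replication genes, did not pass the test. The higher members were Ccnd3, Ccnd2 and E2f2, and the lower ones Ccne1, Ccne2, Mcm7, Mcm10, Cdt1, Rrm2 and Bub1. The median over members was -0.14 and over all genes 0.01. On the deposited TPM scale, tested with limma, 1 member was higher and 34 lower, but there 50.9% of all genes were lower and the median of all genes was -0.61. TPM values in blood therefore lie further below eHB than the edgeR fold changes. Both measures are relative: TPM is a share of all transcripts, and edgeR scales libraries to the bulk of the genes. The 50 most abundant genes took 25.87% to 33.6% of TPM in day 2 blood and 19.1% to 20.45% in eHB. Their part in the gap was not tested.

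Ccnd3 had 1443, 1057, 2398, 866 and 681 TPM in day 2 blood, against the 140.2 to 368 TPM of eHB given above. Every blood library lay above every eHB line, and for Ccnd3 the log2 fold change was 3.30 ± 0.50 (SE, edgeR adjusted p = 0.000552). Ccnd2 had 269, 186, 170.5, 57.4 and 273 TPM in day 2 blood and 27.3 to 169 TPM in eHB. The TPM ranges overlapped and the log2 fold change was 1.42 ± 0.47 (SE, edgeR adjusted p = 0.0278). Ccnd1 had 106, 156, 17.5, 27.99 and 176 TPM in day 2 blood, against 130.0 to 401 TPM in eHB. Each blood library was below the eHB culture of its own line, but the ranges of the groups overlapped. Ccnd1 was not called, at -1.02 ± 0.51 (SE, edgeR adjusted p = 0.112), and with the line as a block it was lower at -1.29 (edgeR adjusted p = 0.0155). E2f2, an activator of S phase genes that is used in erythroid cells, was called higher at 2.28 ± 0.65 (SE, edgeR adjusted p = 0.0136). It had 3.43, 5.17, 12.6, 33.8 and 7.97 TPM in day 2 blood, against 5.55, 4.62, 5.96, 3.91 and 2.56 TPM in eHB. The TPM ranges overlapped, FL4 was the highest blood library, and RB3.6.5 had less TPM in blood than in eHB. Mean TPM was 12.6 ± 12.3 in day 2 blood and 4.52 ± 1.35 in eHB (SD, n = 5 each).

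Rrm2 had 70.8, 79.4, 44.6, 147 and 137 TPM in day 2 blood and 295 to 477 TPM in eHB. All 5 blood libraries were lower, with M5 lowest, and for Rrm2 the log2 fold change was -1.45 ± 0.29 (SE, edgeR adjusted p = 0.00264). Mcm10 had 17.4, 20.6, 10.2, 37.7 and 31.9 TPM in day 2 blood and 65.1 to 73.6 TPM in eHB, at -0.90 ± 0.29 (SE, edgeR adjusted p = 0.0233). Bub1 had 11.47, 18.98, 5.04, 33.02 and 27.03 TPM in day 2 blood and 52.04 to 117 TPM in eHB, at -1.43 ± 0.44 (SE, edgeR adjusted p = 0.0203). FL4 was the highest of the blood libraries for Bub1, as for all 23 G2/M members. Ccne1 had 46.5, 35.05, 17.1, 63.2 and 49.2 TPM in day 2 blood and 111 to 175 TPM in eHB, at -1.08 ± 0.29 (SE, edgeR adjusted p = 0.00989). Ccne2 had 9.32, 10.8, 2.28, 11.7 and 14.1 TPM in day 2 blood and 24.5 to 32.8 TPM in eHB, at -0.91 ± 0.32 (SE, edgeR adjusted p = 0.035). The E cyclins were thus lower while D cyclins 2 and 3 were higher. Rb1 had 19.7, 18.3, 44.1, 14.1 and 10.96 TPM in day 2 blood and 13.7 to 29.4 TPM in eHB, with M5 far above the other blood libraries, and was not called, at 0.85 ± 0.45 (SE, edgeR adjusted p = 0.131). Rbl1 had 5.32, 9.76, 3.15, 12.2 and 12.7 TPM in day 2 blood and 11.7 to 23.02 TPM in eHB and was not called, at -0.38 ± 0.32 (SE, edgeR adjusted p = 0.337).

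The count of lower members turned on single libraries. Without FL4, which had erythroid markers at 53410 TPM, 24 members were lower, 15 of them G2/M genes, at a background of 25.8%. Without RB3.6.5 or RB4.6.9 there were 4 (21% and 23.6% of genes), and with the line as a block 12 (25.7%). Of the other pathway genes, 14 of 42 replication genes, 11 of 55 mitosis genes and 11 of 22 E2F, Rb and MuvB genes were lower, and 1, 3 and 2 were higher. Lower genes included Ckap2, a spindle protein, at -1.95 ± 0.31 (SE, edgeR adjusted p = 0.000728), and Recql4 at -1.50 ± 0.29 (SE, edgeR adjusted p = 0.00211), and Fzr1, an activator of the anaphase-promoting complex, was higher at 1.00 ± 0.16 (SE, edgeR adjusted p = 0.000663). Of 8 genes listed as CDK inhibitors 5 rose, with Cdkn3 among them, and none fell. Cdkn2d, the INK4 inhibitor p19, had 139.6 ± 66.9 TPM in day 2 blood and 16.4 ± 6.29 TPM in eHB, at 3.86 ± 0.48 (SE, edgeR adjusted p = 0.000223).

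Day 3 blood against day 2 blood, a comparison that also changes the sort on CD45, called 0 of 50 members in either direction with edgeR, against 7.31% of 12084 genes higher and 2.87% lower. Unadjusted, 8 members had p under 0.05. DESeq2 called 1 member higher and 3 lower (11.3% and 8.66% of genes), namely Cdk6 and then Cdc20, Mcm2 and Tk1. With the line as a block edgeR called Cdk6 higher at 2.17 (adjusted p = 0.0397) and Cdc20 and Tk1 lower at -1.11 and -1.28 (adjusted p = 0.0275 and 0.0311), against 7.83% and 3.19% of genes. Without day 3 RB3.6.5 no member was called (9.38% and 6.35%).

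The lines did not move together. The mean difference in log2(TPM + 1) of the replication set was 0.88 in M5, 0.03 in RB4.6.9, -0.41 in FL4, -0.52 in FL10 and -1.58 in RB3.6.5. For the G2/M set it was 0.82 in M5, 0.28 in RB4.6.9, -0.80 in FL4, -0.76 in FL10 and -1.39 in RB3.6.5. The extremes came from the libraries that stood apart, low on day 2 for M5 and low on day 3 for RB3.6.5. Ccnd1 had 35.6, 136, 37.1, 58.5 and 69.7 TPM on day 3, and Ccnd2 had 202, 262, 196, 155 and 229 TPM, both within the range of their day 2 values above, with log2 fold changes of -0.54 ± 0.53 (SE, edgeR adjusted p = 0.554), and 0.07 ± 0.33 (SE, edgeR adjusted p = 0.914). Ccnd3 had 1964, 829.6, 742, 670.0 and 591 TPM on day 3, at -0.51 ± 0.55 (SE, edgeR adjusted p = 0.596), with RB3.6.5 far above the other lines. Rb1 had 65.7, 30.4, 13.6, 11.8 and 10.3 TPM on day 3, at 0.23 ± 0.70 (SE, edgeR adjusted p = 0.864). It was higher on day 3 than on day 2 in both ES-derived lines and lower in the tissue-derived lines. Rbl1 had 2.43, 12.5, 11.04, 13.1 and 9.38 TPM on day 3, at 0.03 ± 0.41 (SE, edgeR adjusted p = 0.97). Of the other pathway genes, Cdc25b, a phosphatase that activates Cdk1, fell by 2.54 on the log2 scale (edgeR adjusted p = 0.0485), as did Mad1l1 and Fzr1 at -0.51 and -0.86.

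Day 3 blood against day 3 endothelial cultures compares both fates at the same time after doxycycline withdrawal, in different media and with a sort for blood alone. Low oxygen is likewise stated for the blood cultures alone. Blood libraries held more of the machinery: 42 members were higher and 1 lower, against 31.1% and 30.2% of 12655 genes. Higher members were 21 of 23 G2/M genes (median 2.72), 14 of 15 replication genes (median 2.13) and 7 of 12 G1/S genes. Ccnd1 was the lower one. In RB3.6.5 the mean difference in log2(TPM + 1) between blood and endothelial culture was only 0.19 for the replication set (10 members higher, 5 lower) and 0.20 for the G2/M set (16 higher, 7 lower). In the other 4 lines it was 1.64 to 2.45 and 1.82 to 3.14. A test against a 2-fold change passed 38 members and 14.3% of genes.

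Mcm10 had 5.14, 28.8, 23.2, 32.7 and 20.2 TPM in day 3 blood, against 1.42, 1.13, 1.73, 4.84 and 2.69 TPM in endothelial cultures. Mcm5 had 25.2, 103, 114, 138 and 101 TPM in day 3 blood, against 14.02, 10.3, 9.72, 31.1 and 17.3 TPM in endothelial cultures. For Mcm10 all 5 blood libraries lay above every endothelial culture, and for Mcm5 all but RB3.6.5 did. The log2 fold changes were 3.55 ± 0.51 (SE, edgeR adjusted p = 0.000184), for Mcm10, and 2.88 ± 0.42 (SE, edgeR adjusted p = 0.000225), for Mcm5. Mybl2, which with MuvB turns on mitotic genes, had 8.72, 51.7, 31.9, 53.1 and 34.9 TPM in day 3 blood, against 3.38, 1.92, 2.23, 8.38 and 4.04 TPM in endothelial cultures, at 3.50 ± 0.50 (SE, edgeR adjusted p = 0.000196). Aurkb, the kinase of the chromosomal passenger complex, had 19.3, 79.6, 44.9, 79.5 and 54.6 TPM in day 3 blood, against 5.25, 3.75, 2.83, 14.1 and 7.48 TPM in endothelial cultures, at 3.39 ± 0.48 (SE, edgeR adjusted p = 0.000168). In both genes every blood library lay above every endothelial culture. Cenpf and Foxm1 were the G2/M members not called, at 1.44 ± 0.60 (SE, edgeR adjusted p = 0.0596), and 0.86 ± 0.41 (SE, edgeR adjusted p = 0.091), and both passed without day 3 blood of RB3.6.5.

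In the G1/S set, Ccne1 had 13.3, 46.7, 31.1, 51.8 and 38.2 TPM in day 3 blood and 3.74 to 8.54 TPM in endothelial cultures, at 3.03 ± 0.32 (SE, edgeR adjusted p = 2.59e-05). Ccnd1 ran opposite, with the 35.6 to 136 TPM of day 3 blood all below the 489.9 to 809 TPM of endothelial cultures, at -3.01 ± 0.33 (SE, edgeR adjusted p = 3.52e-05). Rbl1 was higher at 2.30 ± 0.36 (SE, edgeR adjusted p = 0.000311). Ccnd3, Ccnd2 and Rb1 were not called, at 0.58 ± 0.44 (SE, edgeR adjusted p = 0.276), at 0.48 ± 0.32 (SE, edgeR adjusted p = 0.215), and at 0.00 ± 0.58 (SE, edgeR adjusted p = 0.995). For Rb1, 1 library decided this value: without day 3 blood of RB3.6.5, Rb1 was lower in blood at -0.94 ± 0.32 (SE, edgeR adjusted p = 0.0279) and Ccnd3 was at -0.08. The member counts were then 44 higher and 2 lower (33.4% and 33.5% of genes), with all 23 G2/M members higher.

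Of the other pathway genes, 33 of 42 replication, 50 of 55 mitosis and 8 of 22 E2F, Rb and MuvB genes were higher in blood, and 1, 0 and 2 were lower. E2f8, a repressor of the E2F family, was the most raised of the last list at 4.26 ± 0.56 (SE, edgeR adjusted p = 0.000109). Of 8 genes listed as CDK inhibitors 2 were higher in blood and 1 lower. Cdkn2b was lower in blood, with 15.6 ± 7.11 TPM against 125 ± 50.3 TPM in endothelial cultures, at -2.53 ± 0.45 (SE, edgeR adjusted p = 0.000766). Cdkn2d was higher in blood, with 87.2 ± 73.0 TPM against 22.9 ± 6.51 TPM in endothelial cultures, at 2.49 ± 0.59 (SE, edgeR adjusted p = 0.00414). Cdkn3 was higher at 2.56 ± 0.43 (SE, edgeR adjusted p = 0.000507).

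The make-up of the D cyclin transcripts is given without a test. Summed over the 3 genes, endothelial cultures had 1804 ± 363.8 TPM, of which Ccnd1 made 38.13%, Ccnd2 10.94% and Ccnd3 50.93% on average. Day 3 blood had 1235 ± 558 TPM with 6.192%, 18.78% and 75.03% in that gene order, and day 2 blood 1577 ± 651.8 TPM with 7.233%, 12.97% and 79.79%. The eHB lines had the smaller sum of 618.3 ± 176.2 TPM with 44.78%, 19.62% and 35.59% (SD, n = 5 in each group). Ccnd3 made the largest mean share in every group except eHB and mesoderm, and in day 2 blood its share ranged from 60.3% to 92.73%. Mesoderm had 454.5 ± 52.87 TPM with Ccnd1 at 52.34% (SD, n = 3), and ES cells 324.4 ± 13.14 TPM with Ccnd3 at 65.02% and Ccnd2 at 0.1843% (SD, n = 3). Ccnd3 made 52.79% of the sum in yolk sac and 52.81% in embryo endothelium (n = 2 each). HSC had 410.5 TPM with shares of 21.77%, 28.22% and 50.01%.

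**Figure D4:**
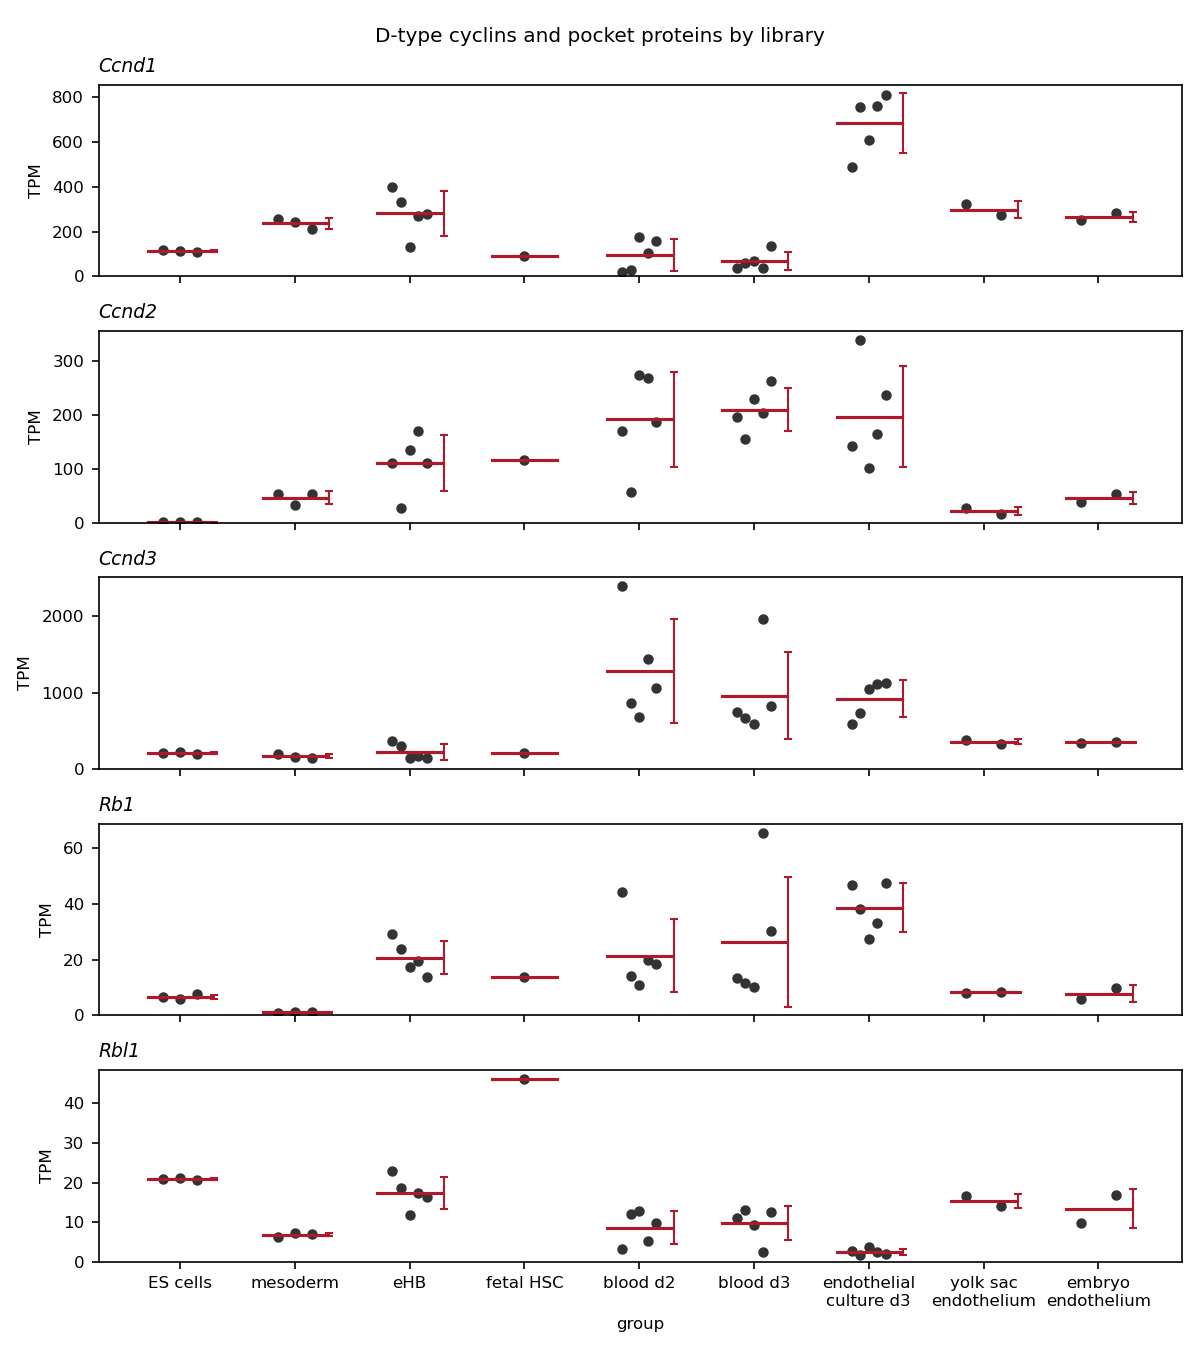
TPM (vertical axis) of Ccnd1, Ccnd2, Ccnd3, Rb1 and Rbl1 in each library (points) by group, with the group mean (red line) and SD (bar). Ccnd1 is low in both blood groups and high in endothelial cultures, whereas Ccnd3 is high in all 3, with day 3 blood of RB3.6.5 at 1964 TPM.

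Endothelial cultures were also set against endothelium taken from the embryo. The cultures were unsorted and the embryo cells sorted, so culture, medium and sort cannot be told apart here. Embryo libraries carried erythroid markers at 940.1 to 10790 TPM and macrophage markers at 78.34 to 137.1 TPM. In the cultures these were at 0.775 to 878.4 and 3.648 to 9.136 TPM, and the part of such cells was not tested. The cultures held less of the machinery than embryo endothelium: 43 members were lower and 4 higher, against 23.4% and 22% of 13725 genes. By a test against a 2-fold change 40 members were lower, which 9.36% of genes passed. All 15 replication and 22 of 23 G2/M members were lower, with Cenpf not called at -1.98 ± 0.70 (SE, edgeR adjusted p = 0.0512). The 4 higher members were the 3 D cyclins and Rb1. Medians were -2.74 over members and 0.02 over all genes.

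Ccnb2 had 12.8, 6.90, 4.42, 17.3 and 7.54 TPM in endothelial cultures, against 144 and 135 TPM in embryo endothelium. Aurkb had the endothelial culture values given above, against 92.7 and 93.9 TPM in embryo endothelium. Both mitotic genes were lower in each culture than in either embryo library, at -3.86 ± 0.44 (SE, edgeR adjusted p = 0.000836), and -3.83 ± 0.52 (SE, edgeR adjusted p = 0.00153). Mcm10 had 29.9 and 30.8 TPM and Mcm5 214 and 188 TPM in embryo endothelium, again above all cultures, with log2 fold changes of -3.71 ± 0.50 (SE, edgeR adjusted p = 0.00142), and -3.64 ± 0.41 (SE, edgeR adjusted p = 0.000808). Ccne1 had 36.96 and 35.9 TPM in embryo endothelium and was lower in cultures at -2.73 ± 0.30 (SE, edgeR adjusted p = 0.000754). Rbl1, at 9.90 and 16.95 TPM in embryo endothelium, was lower in cultures at -2.44 ± 0.30 (SE, edgeR adjusted p = 0.00102).

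Rb1 had 27.5 to 47.5 TPM in endothelial cultures, against 5.72 and 9.91 TPM in embryo endothelium, at 2.33 ± 0.30 (SE, edgeR adjusted p = 0.00124). Ccnd1 had 489.9 to 809 TPM in endothelial cultures, against 251 and 282 TPM in embryo endothelium, at 1.36 ± 0.25 (SE, edgeR adjusted p = 0.00424). The cultures were higher without overlap in both genes. Ccnd3 had 340.4 and 356 TPM in embryo endothelium and was higher in cultures at 1.40 ± 0.30 (SE, edgeR adjusted p = 0.00829). Ccnd2 had 38.2 and 53.7 TPM in embryo endothelium and was higher in cultures at 2.11 ± 0.51 (SE, edgeR adjusted p = 0.0138). Every culture lay above both embryo libraries for these genes as well. With either embryo library left out, 2 members were higher, and Ccnd2 (1.99 and 2.25) and Ccnd3 (1.48 and 1.32) lost the call. The embryo arm then has 1 library, which is assumed to vary like the cultures, and shares of all genes called are not given for these fits. Of 8 genes listed as CDK inhibitors 3 were higher in the cultures and 3 lower. Cdkn2a had 332 ± 126 TPM in endothelial cultures and 0.036 ± 0.0509 TPM in embryo endothelium, at 12.89 ± 0.91 (SE, edgeR adjusted p = 0.000238). Cdkn2b had 125 ± 50.3 TPM in endothelial cultures and 0.0930 ± 0.132 TPM in embryo endothelium (SD, n = 5 and 2). Cdkn1a was higher at 5.38 ± 0.63 (SE, edgeR adjusted p = 0.000893). Cdkn1c, the p57 inhibitor, ran opposite, with 14.6 ± 10.4 TPM in endothelial cultures and 454 ± 19.8 TPM in embryo endothelium, at -4.99 ± 0.69 (SE, edgeR adjusted p = 0.0016). Cdkn3 and Cdkn2c were also lower, at -3.32 and -2.04 (edgeR adjusted p = 0.00272 and 0.0333). Of other replication and mitosis genes 38 of 42 and 53 of 55 were lower in the cultures.

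Few members were called between yolk sac and embryo endothelium. With edgeR 1 member was lower in yolk sac and none higher, against 8.54% and 15.9% of 13673 genes, and 7 members had an unadjusted p under 0.05. That member was Ccnd2, with 26.8 and 16.9 TPM in yolk sac and 38.2 and 53.7 TPM in embryo endothelium, at -1.11 ± 0.23 (SE, edgeR adjusted p = 0.00527). Ccnd1 had 325 and 272 TPM, Ccnd3 383 and 332 TPM, Rb1 8.18 and 8.43 TPM and Rbl1 16.5 and 14.04 TPM in yolk sac, and all 4 were within 0.17 of embryo endothelium on the log2 scale. The median log2 fold change was -0.43 over the replication set and 0.01 over the G2/M set. Without embryo library 2, which had erythroid markers at 10790 TPM, 14 members were lower in yolk sac, 11 of them replication genes, against 13.2% of genes. Without embryo library 1 there were 2 lower and 1 higher, and without yolk sac library 2 none. Each of these fits leaves an arm of 1 library, which is assumed to vary like the other group. Except for the fit without embryo library 2, their shares of all genes called are not given here. Yolk sac libraries carried visceral endoderm markers at 9729 to 9906 TPM, against 4.598 to 9.723 TPM in embryo libraries, and the part of either cell type in the result was not tested. Cdkn2c, the p18 inhibitor, was higher in yolk sac, with 48.1 ± 5.49 TPM against 3.59 ± 0.209 TPM in embryo endothelium, at 3.70 ± 0.27 (SE, edgeR adjusted p = 7.86e-06).

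In the eHB lines against Kdr-positive mesoderm, members were called in both directions, in shares near those of all genes. In all, 10 members were higher and 12 lower, against 23.5% and 23.1% of 13282 genes, with a median of -0.02 over members and 0.05 over all genes. By limma on TPM, where the median of all genes was 0.31, 17 were higher and 4 lower. In the G1/S set 5 were higher and 1 lower. In replication 5 of 15 were lower and none higher, and in G2/M 5 of 23 were higher and 6 lower. Without mesoderm sample 1 or sample 3, 7 members were lower. Shares of all genes called are not given here for these fits or for limma, so these counts cannot be set against other genes.

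Rb1 stood out, with 29.4, 23.8, 17.4, 19.5 and 13.7 TPM in eHB, against 0.834, 1.32 and 1.09 TPM in mesoderm, at 3.94 ± 0.28 (SE, edgeR adjusted p = 4.69e-05). Rbl1 had 23.02, 18.7, 11.7, 17.2 and 16.2 TPM in eHB, against 6.34, 7.16 and 7.04 TPM in mesoderm, at 1.02 ± 0.19 (SE, edgeR adjusted p = 0.00339). Cdk2, the partner of cyclins E and A, had 196, 99.5, 156, 207 and 157 TPM in eHB, against 65.1, 79.8 and 60.02 TPM in mesoderm, at 0.95 ± 0.23 (SE, edgeR adjusted p = 0.00999). All eHB lines were above the mesoderm samples for these 3 genes. Cdk4 was lower, with 769.6 ± 56.1 TPM in eHB and 779.8 ± 26.4 TPM in mesoderm (SD, n = 5 and 3), at -0.34 ± 0.10 (SE, edgeR adjusted p = 0.0206). The D cyclins had, in mesoderm, 257, 245 and 211 TPM for Ccnd1, 53.6, 32.3 and 53.5 TPM for Ccnd2 and 203, 162 and 147 TPM for Ccnd3. None was called, at -0.09 ± 0.29 (SE, edgeR adjusted p = 0.823), 0.91 ± 0.52 (SE, edgeR adjusted p = 0.18), and 0.06 ± 0.33 (SE, edgeR adjusted p = 0.89).

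Lower members included Mybl2, with 43.98, 56.7, 68.2, 57.7 and 70.00 TPM in eHB, against 91.6, 80.9 and 83.6 TPM in mesoderm, at -0.85 ± 0.18 (SE, edgeR adjusted p = 0.00582). Foxm1 had 39.5, 36.4, 40.1, 38.6 and 38.2 TPM in eHB, against 52.02, 57.9 and 49.996 TPM in mesoderm, at -0.79 ± 0.08 (SE, edgeR adjusted p = 0.000238). Ccnb2, Birc5, Kif20a and Cenpa were the other lower G2/M members, at -0.63, -0.56, -0.49 and -0.37. The higher ones were Cenpe, Mki67, Kif11, Bub1b and Aurkb at log2 fold changes of 0.68, 0.64, 0.56, 0.34 and 0.27, with mean TPM in eHB and mesoderm of 47.2 ± 3.69 and 23.6 ± 2.33 for Cenpe and of 107 ± 10.1 and 54.7 ± 9.63 for Mki67. Gmnn, the inhibitor of Cdt1, had 119 ± 11.1 TPM in eHB and 152 ± 14.4 TPM in mesoderm, at -0.67 ± 0.10 (SE, edgeR adjusted p = 0.00131). Mcm5 had 145, 146, 214, 235 and 216 TPM in eHB, against 251, 229.8 and 239 TPM in mesoderm, at -0.65 ± 0.21 (SE, edgeR adjusted p = 0.0328). Among CDK inhibitors, Cdkn2a and Cdkn1a were higher in eHB, Cdkn2a with 322 ± 57.03 TPM against 49.6 ± 11.1 TPM in mesoderm, and Cdkn1a with 645 ± 66.7 TPM against 192 ± 19.02 TPM. Cdkn3 was lower in eHB at -0.94 ± 0.26 (SE, edgeR adjusted p = 0.0173).

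Mesoderm was set against the ES cells it came from. In all, 14 members were higher and 25 lower, against 39.1% and 40% of 13539 genes. By limma on TPM, where the median of all genes was -0.31, 7 were higher and 34 lower. The share of all genes called by limma is not given here, so these limma counts cannot be set against other genes. Ccnd2 had 53.6, 32.3 and 53.5 TPM in mesoderm samples, against 0.457, 0.388 and 0.923 TPM in ES cells, at 6.67 ± 0.39 (SE, edgeR adjusted p = 1.64e-06). Ccnd1 had the mesoderm values above, against 117, 115 and 107 TPM in ES cells, at 1.40 ± 0.10 (SE, edgeR adjusted p = 1.96e-06). Mesoderm was higher without overlap in both D cyclins. Ccnd3, at 209.8, 221 and 202 TPM in ES cells, was not called, at 0.03 ± 0.14 (SE, edgeR adjusted p = 0.856).

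Rb1 and Rbl1 went down. Rb1 had 0.834, 1.32 and 1.09 TPM in mesoderm samples, against 6.51, 5.89 and 7.51 TPM in ES cells, at -2.29 ± 0.19 (SE, edgeR adjusted p = 5.85e-06). Rbl1 had 6.34, 7.16 and 7.04 TPM in mesoderm samples, against 20.9, 21.04 and 20.6 TPM in ES cells, at -1.28 ± 0.09 (SE, edgeR adjusted p = 2.43e-06). For Rb1 the mesoderm samples lay below every ES and every eHB library. Mybl2, Cenpf, Cdk6, Mcm3 and Cdt1 were also lower, at -2.13, -1.86, -1.74, -0.81 and -0.80. Mybl2 had 91.6, 80.9 and 83.6 TPM in mesoderm samples, against 475, 475 and 466.3 TPM in ES cells. Cdk6, a kinase for D cyclins, had 7.25, 2.99 and 4.604 TPM in mesoderm samples, against 21.03, 22.6 and 19.5 TPM in ES cells. Mcm3 had 199, 202 and 192 TPM in mesoderm samples, against 418, 438 and 453 TPM in ES cells. No library overlapped for these 3 genes.

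Against that direction, 12 members beside Ccnd1 and Ccnd2 were higher. Cdk1 and Cdk4 both had a log2 fold change of 0.80, Ccne1 of 0.76, the ribonucleotide reductase subunit Rrm1 of 0.72, and Cdc20, Ccnb2, Plk1, Cenpa, Ccne2, Ccna2, Aurkb and Foxm1 of 0.52 to 0.17. Aurkb, Ccna2 and Foxm1 turned to -0.13, -0.09 and -0.15 by limma on log2(TPM + 1), and Aurkb and Foxm1 lost the call with the line as a block. Cdkn1c rose to 105 ± 18.6 TPM in mesoderm samples, against 3.75 ± 0.109 TPM in ES cells (SD, n = 3 each), at 5.14 ± 0.12 (SE, edgeR adjusted p = 4.43e-09). Of 8 genes listed as CDK inhibitors 4 rose and 1 fell, namely Cdkn1b at -1.20 ± 0.15 (SE, edgeR adjusted p = 8.61e-05).

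Tissue-derived eHB lines (M5, FL4 and FL10) against ES-derived ones (RB3.6.5 and RB4.6.9) gave 6 members higher and 5 lower, against 4.56% and 7.2% of 12759 genes. Leaving out any library ended every one of these calls. Lower members were Nusap1, a spindle protein, with 34.3, 37.3 and 29.3 TPM in tissue-derived and 119 and 92.7 TPM in ES-derived lines, at -1.57 ± 0.15 (SE, edgeR adjusted p = 0.0257), and Cenpf, Bub1, Top2a and Ccnd3. Cenpf had 20.5, 21.8 and 19.9 TPM in tissue-derived and 41.4 and 43.9 TPM in ES-derived lines, at -0.97 ± 0.09 (SE, edgeR adjusted p = 0.0247). Ccnd3 had 140.2, 175 and 141 TPM in tissue-derived and 368 and 308 TPM in ES-derived lines, at -1.07 ± 0.14 (SE, edgeR adjusted p = 0.0277). Each of these 3 was lower without overlap.

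Higher members were Cdk6, Tyms, Mcm5, Cdc20, Mcm3 and Mcm6. Tyms had 93.03, 96.03 and 91.6 TPM in tissue-derived and 61.1 and 55.3 TPM in ES-derived lines, at 0.76 ± 0.08 (SE, edgeR adjusted p = 0.0277). Mcm5 had 214, 235 and 216 TPM in tissue-derived and 145 and 146 TPM in ES-derived lines, at 0.68 ± 0.09 (SE, edgeR adjusted p = 0.0277). Cdc20, which activates the anaphase-promoting complex, had 401, 342 and 334 TPM in tissue-derived and 260.3 and 252 TPM in ES-derived lines, at 0.56 ± 0.11 (SE, edgeR adjusted p = 0.0424). Cdk6 had 15.3, 12.5 and 13.4 TPM in tissue-derived and 1.62 and 3.64 TPM in ES-derived lines, at 2.45 ± 0.44 (SE, edgeR adjusted p = 0.0373). These 4 genes were higher without overlap. Ccnd1, Ccnd2, Rb1 and Rbl1 were not called, at -0.62, 1.10, -0.58 and -0.39.

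Fetal HSC, a single library, could be set beside day 3 blood only as values. In HSC, 35 of 50 members lay above the range of the 5 blood libraries and 2 below, where 57.4% of 12925 genes were above and 13.4% below. The median difference in log2(TPM + 1) was 1.10 over members and 0.64 over all genes. Replication genes were above in 14 of 15 cases, and Mcm6 had 414.4 TPM in HSC against 44.08 to 226.9 TPM in blood. Rrm2 was the exception, at 91.92 TPM in HSC within 23.11 to 123.5 TPM. G2/M genes were above in 16 of 23 cases, and Kif11, the spindle motor, had 86.56 TPM in HSC against 6.138 to 40.45 TPM in blood. Rbl1 had 46.24 TPM in HSC against 2.427 to 13.06 TPM in blood. The 2 members below were Ccnd3, at 205.3 TPM in HSC against 590.8 to 1964 TPM in blood, and Ccnd2, at 115.8 TPM in HSC against 154.7 to 261.9 TPM in blood. Ccnd1 and Rb1, at 89.38 and 13.82 TPM in HSC, lay within the blood ranges.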

How the data were processed

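Total RNA from the 31 libraries was purified with Trizol and RNeasy columns with DNase treatment and prepared with the TruSeq kit v2, per the labels' protocols. Per the submitters' processing notes, CASAVA 1.8.2, RSEM 1.2.3 and Bowtie 0.12.9 were used on build mm10. The authors deposited expected counts per gene, RSEM estimates that divide reads fitting several transcripts. The authors also deposited TPM, renormalised in a way that no source used here describes. The TPM header holds 1 extra name, and in 31 of 31 cases the assigned column was closest to the library's own counts.

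Expected counts were rounded and tested with edgeR 4.0.16 in R 4.3.3 (robust quasi-likelihood F test, TMM, filterByExpr), with only the groups compared in each of the 9 fits. P-values were adjusted by Benjamini-Hochberg over all genes tested, at 0.05. The SE is the size of the unshrunk log2 fold change divided by the square root of F. Alternatives were DESeq2 1.42.0, limma 3.58.1 on log2(TPM + 1) or log2(TPM + 0.1) of genes with at least 1 TPM, other scalings, no filter, a test against a 2-fold change, the eHB line as a block, and each library left out. The scripts were tested on simulated data.

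Samples of different stages share a cell line, which the names give. Deviations of the same line correlated at 0.315 to 0.484 between endothelial cultures and eHB, 0.251 to 0.412 between day 2 blood and eHB, 0.232 to 0.66 between day 3 and day 2 blood, 0.126 to 0.33 between day 3 blood and endothelial cultures, and -0.0604 to 0.0521 between mesoderm and ES cells. No libraries of a group were duplicates: in 48 pairs, genes whose counts summed to at least 50 had a mean chi-square of 4.164 to 568.

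For each comparison the text names the 2 largest called members per set with a mean of at least 20 TPM in the higher group, called members that go against their set, and Ccnd1, Ccnd2, Ccnd3, Rb1 and Rbl1. Other members and pathway genes are named where the text counts them, and some of those were chosen after their values were seen. The members, lists and rule were chosen with earlier results of these data known. Promoter sequences are those of RefSeq on GRCm38.p6, and 34 of the 39 members matched have the 20 bases after the start in a GENCODE transcript. A marker of the erythroid list is not reported here and was left out of its sums.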

Additional observations from a re-analysis of the deposited data

Results flagged for a closer look

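In groups of 5 libraries, 200 combinations of member and group were looked at for a library far from the other 4, by a rule that chance meets in about 1 of 20, and 10 met it. Day 3 blood of RB3.6.5 accounts for 6. Ccnd3 was at 1964 TPM there, against 590.8 to 829.6 TPM in the other day 3 blood libraries. Cdk2 was at 32.84 TPM (others 87.18 to 103), Mcm3 at 39.88 TPM (140.1 to 179.1), Mcm4 at 15.94 TPM (66.49 to 86.64), Pcna at 76.77 TPM (246.7 to 308.1) and Rrm1 at 25.21 TPM (96.26 to 122.8). This library had the fewest counts, 9424412, and erythroid markers at 7858 TPM, against 181.9 to 1216 TPM in the others, and the part of either was not tested.

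In day 2 blood, Cdk6 was at 7.431 TPM in FL10 (others 0.509 to 1.706), Rb1 at 44.14 TPM in M5 (others 10.96 to 19.7) and Ccnb2 at 268.6 TPM in FL4 (others 57.5 to 110). In endothelial cultures Pcna was at 200.8 TPM in FL4 (others 153.4 to 158.7).

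For a pair of genes the ES-derived and tissue-derived lines moved in opposite directions, a difference that was not tested. Rb1 in day 3 blood minus day 2 blood rose by 1.19 in log2(TPM + 1) on average in the ES-derived lines, and was -1.63 to -0.08 in the tissue-derived lines. Ccnd3 in day 3 blood minus endothelial cultures averaged 0.95 in the ES-derived lines and -0.91 to -0.61 in the tissue-derived lines.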

How the results depend on the processing

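Over 99 values of named members and all alternatives, 1383 kept direction and call, 155 lost the call, 8 gained it and 9 reversed. The reversals were Rb1 in day 3 blood against endothelial cultures at -0.94 without day 3 blood of RB3.6.5 and within 0.24 of 0 when any other blood or endothelial library was left out, and, by limma with either pseudocount in mesoderm against ES cells, Aurkb at -0.13 with both, Ccna2 at -0.09 with both, Ccnd3 at -0.32 with both and Foxm1 at -0.15 and -0.16. The cause was not tested.

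By limma on TPM with either pseudocount, members higher and lower were 7 and 34 in mesoderm against ES cells, 17 and 4 in eHB against mesoderm, and 1 higher with 34 or 33 lower in day 2 blood against eHB. There were 3 lower in yolk sac against embryo and 8 lower in tissue-derived against ES-derived eHB. DESeq2 called 1 higher and 3 lower in day 3 against day 2 blood, 4 lower in yolk sac and 9 lower in tissue-derived eHB, and upper-quartile scaling and no filter gave 3 lower in yolk sac. A test against a 2-fold change, which asks for more, gave 2 higher and 8 lower in mesoderm, 1 and 0 in eHB against mesoderm, 1 higher in endothelial cultures against eHB (0 in ES-derived lines), 1 and 0 in day 2 blood, 1 higher in endothelial cultures against embryo, 0 lower in yolk sac, and 0 and 0 in tissue-derived eHB. With the line as a replicate block, 12 members were lower in day 2 blood, and 1 was higher and 2 lower in day 3 against day 2 blood, namely Cdk6, Cdc20 and Tk1. Among the 99 values of named members, the block also changed the calls of Ccnd1 (day 2 blood), Aurkb and Foxm1 (mesoderm) and no other.

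With 1 library left out, higher and lower members ranged from 3 to 3 and 44 to 45 in endothelial cultures against eHB, 2 to 3 and 4 to 24 in day 2 blood, 0 to 1 and 0 to 0 in day 3 against day 2 blood, and 42 to 44 and 1 to 2 in day 3 blood against endothelial cultures. They ranged from 2 to 4 and 40 to 44 against embryo, 0 to 1 and 0 to 14 in yolk sac, 8 to 10 and 7 to 12 in eHB against mesoderm, 10 to 12 and 22 to 25 in mesoderm, and 0 to 0 both ways in tissue-derived eHB. Depth was lowest in day 3 blood of RB3.6.5, at 9424412 counts. For most settings of this section the share of all genes called is not given. Their counts therefore show how calls depend on processing, not how the members compare with other genes.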
